A study of Drosophila melanogaster with 18 samples.

Results

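The UDP-glycosyltransferase (Ugt) genes of *Drosophila melanogaster* were taken as all rows of the count table whose gene symbol begins with Ugt followed by a digit. This rule found 35 genes among 17562, in 13 families (the number of the symbol, as in Ugt35) and 28 subfamilies (number and letter, as in Ugt37B). RNA was sequenced from whole 3rd instar larvae of 6 groups, with 3 replicates each and 18 libraries in all. The groups were 21D.del, 82Eb.del, 95Ca.del, 95Cb.del and 95Cc.del, each homozygous for a CRISPR/Cas9 deletion of the one U1 small nuclear RNA gene it is named for, and WT, the w1118 isogenic strain. The deletion strains had been crossed back to WT, and none of the groups carried another treatment or transgene that the labels name. Each deletion strain was set against WT to find which Ugt mRNAs changed when a single U1 gene was missing, U1 being the small RNA that recognises the start of introns in the spliceosome.

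UGT enzymes sit in the membrane of the endoplasmic reticulum and move a sugar from a UDP-sugar onto a small fat-soluble molecule, which makes it easier to dissolve and to excrete. In insects the sugar is mostly glucose, and the substrates include plant toxins, insecticides, odorants, pigments and cuticle precursors. Midgut, Malpighian tubules, fat body and antennae are known sites of expression, and together with cytochrome P450 and glutathione transferase enzymes UGTs make up much of the detoxification system. In RNA of whole larvae, fewer cells of a type and less RNA per cell cannot be told apart.

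Total counts lay between 11919121 and 21776613 per library, and 1 count was worth between 0.0449 and 0.0845 CPM (counts-per-million with TMM-scaled library totals, the unit of level used here). In the 21D.del, 82Eb.del, 95Cb.del and 95Cc.del libraries the deleted U1 gene had 0 counts, and in WT it had between 0 and 9. These genes are near-identical and sparsely counted, so this is a weak check of the labels. The library labelled 95Ca.del replicate 2 held 5 counts on the gene its strain lacks, so that calls, medians and contrasts of 95Ca.del are also given without it. For pairs of strains, sums, families and lists this alternative was chosen after seeing the data. Replicate 2 of WT, 21D.del and 82Eb.del stood apart from the other replicates, and counts of calls are therefore also given over replicates 1 and 3. In the 95C strains replicates 2 and 3 were the closest pair, by scatter between libraries (chi-squared per degree of freedom). It was 77.3 in 95Ca.del, 34.6 in 95Cb.del and 7.52 in 95Cc.del, against at least 126, 137 and 56.8 in pairs with replicate 1. Replicates 1 and 3 of these strains thus keep the replicate that stood further from the others. No source states that the replicates were separate cultures, so p-values measure the spread between these libraries, which may be technical.

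The 35 genes lie on 4 chromosome arms, 17 of them on 3R, 11 on 2L, 5 on 2R and 2 on 3L (dm6). They are short and have few introns. Median exonic length was 1758 bp, and 34 of the 35 span less than 4 kb. The longest annotated transcript had between 0 and 6 introns with a median of 1, against a median of 2 over the 11899 protein-coding genes tested, and 22 members had 1 or 2 introns. Ugt301D1 (FBgn0032684, 2L:18509560-18513512, plus strand, 3 introns) was the most abundant member in WT at 58.9 CPM per kb of exon, followed by Ugt37A3 (FBgn0038083, 3R:12741958-12743680, minus strand, 1 intron) at 41.8 and Ugt35A1 (FBgn0026315, 3R:11170817-11172664, minus strand, 1 intron) at 39.6 CPM per kb. Ugt37E1 had 0 counts in each WT library, where a count of 0 allows up to 3 counts or 0.146 to 0.211 CPM (counting error only). The 4 members with the largest CPM in WT (Ugt301D1, Ugt35A1, Ugt37A3 and Ugt316A1) made up 51.2% of the CPM of all 35.

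A filter on low counts left 27 members for the test in 21D.del, 26 in 82Eb.del, 26 in 95Ca.del, 27 in 95Cb.del and 28 in 95Cc.del, and 29 members were tested in at least 1 strain. A member was called when its fold change exceeded 2 and its adjusted p, from edgeR's quasi-likelihood test over all genes, was below 0.05. In 21D.del 1 of the 27 tested members fell, against 0.892% of all genes tested, and 0 rose, against 0.121%. No member rose there by edgeR, although 2 had an unadjusted p below 0.05 with a positive fold change, and DESeq2 called 2 lower (against 1.95% of all genes) and 1 higher (against 0.579%). In 82Eb.del 4 of 26 fell (15.4%, against 3.8% of all genes) and 2 rose (7.69%, against 0.733%), while DESeq2 called 7 lower (against 4.45%) and 2 higher (against 0.981%). Among these 7 is Ugt35E2, with 0 counts in 82Eb.del, whose call is a description. In 95Ca.del 7 of 26 fell (26.9%, against 2.51%) and 1 rose (3.85%, against 0.241%). In 95Cb.del 12 of 27 fell (44.4%, against 5.96%) and 1 rose (3.7%, against 1.43%). In 95Cc.del 5 of 28 fell (17.9%, against 2.73%) and 3 rose (10.7%, against 2.07%). Thus 16 members were called in at least 1 strain, with 36 calls in all, of which 29 were decreases (80.6%, against 77.6% of the calls over all genes). In 3 of the calls the member had passed the filter through 1 group alone, Ugt37C1 in 95Cc.del through the strain and Ugt49B2 in 95Cb.del and 95Cc.del through WT. Without these 3, 33 calls remain, with 11 lower in 95Cb.del and 4 lower and 2 higher in 95Cc.del. The 5 comparisons share the WT libraries and are not independent.

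The median log2 fold change of the tested members was -0.24 in 21D.del, -0.43 in 82Eb.del, -0.69 in 95Ca.del, -1.09 in 95Cb.del and -0.36 in 95Cc.del. Over all genes tested it lay between -0.02 and 0.03 in the same comparisons. Over replicates 1 and 3 alone, 8 members were called in 21D.del (against 3.89% of all genes), 10 in 82Eb.del (10.1%), 7 in 95Ca.del (3.22%), 9 in 95Cb.del (7.34%) and 6 in 95Cc.del (5.4%). Replicate numbers paired the libraries of WT with those of 21D.del and of 82Eb.del, and with the number as a block 5 members were called in 21D.del (against 3.7% of all genes) and 10 in 82Eb.del (against 9.08%). Without the 95Ca.del replicate 2 library 5 members were called in 95Ca.del (against 1.99% of all genes), 4 lower and 1 higher, Ugt37B1 at -3.11, Ugt37A2 at -4.09, Ugt303B1 at -1.79, Ugt303B2 at -2.01 and Ugt36D1 at 1.06 on the log2 scale. The median of the 27 members then tested was -0.58, against 0.01 over all genes. Of the 36 calls, 11 held when each library of the comparison was left out in turn, and these were Ugt37B1 in 82Eb.del, 95Ca.del, 95Cb.del and 95Cc.del, Ugt37A2 in 82Eb.del, 95Ca.del and 95Cb.del, Ugt36D1 in 82Eb.del and 95Cb.del, Ugt49B2 in 95Cb.del and Ugt35B1 in 95Cc.del. Of these, Ugt49B2 in 95Cb.del had passed the filter through WT alone.

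**Figure D1:**
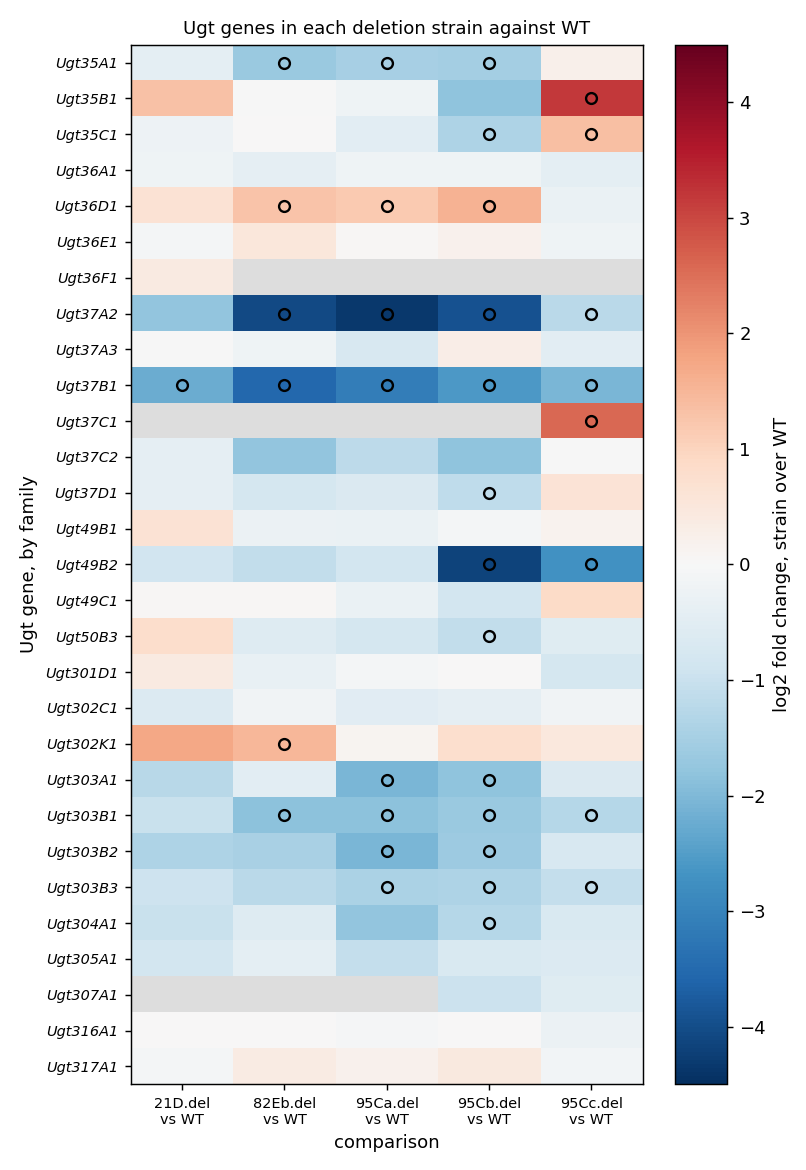
Log2 fold change of each tested Ugt gene (rows, by family) in each deletion strain over WT (columns), with blue lower and red higher in the strain, grey not tested in that comparison, and a circle where the gene was called. Ugt37B1 is circled in all 5 columns, Ugt37A2 and Ugt303B1 in 4, and 95Cb.del carries 13 circles, 12 of them blue.

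The Ugt37 family, with 8 members, held large decreases in several strains. Ugt37B1 (FBgn0026755, 2L:6225048-6226842, plus strand, 1 intron) was the only member called in all 5 strains. Ugt37B1 had 2.11, 4.17 and 2.96 CPM in 21D.del, 1.12, 1.45 and 1.12 in 82Eb.del, 2.33, 1.59 and 0.845 in 95Ca.del, 2.23, 2.59 and 2.46 in 95Cb.del and 3.28, 4.15 and 2.80 in 95Cc.del, against 12.6, 16.1 and 14.5 CPM in WT. Every deletion library lay below every WT library, and the 82Eb.del libraries were among the lowest. The log2 fold change (± SE) was -2.22 ± 0.32 in 21D.del (adjusted p = 0.0386), -3.54 ± 0.22 in 82Eb.del (0.000518), -3.13 ± 0.37 in 95Ca.del (0.00559), -2.59 ± 0.21 in 95Cb.del (0.00069) and -2.07 ± 0.20 in 95Cc.del (0.00226), that is 11.6-fold lower in 82Eb.del and 4.19-fold lower in 95Cc.del. In 21D.del the call was lost without 21D.del replicates 1 and 3 and WT replicates 1, 2 and 3 each in turn (adjusted p between 0.155 and 0.198) and when libraries were scaled by their totals instead of TMM factors (library totals from here on).

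Ugt37A2 (FBgn0038082, 3R:12739642-12741417, plus strand, 1 intron) stands 540 bp from Ugt37A3, on the opposite strand, and fell further than any other member that passed the filter in 82Eb.del and 95Ca.del. Ugt37A2 had 6.04, 12.9 and 9.88 CPM in 21D.del, 2.29, 2.41 and 1.12 in 82Eb.del, 2.06, 0.990 and 1.77 in 95Ca.del, 2.59, 2.11 and 1.93 in 95Cb.del and 15.9, 12.3 and 14.7 in 95Cc.del, against 27.1, 46.5 and 25.4 CPM in WT. All deletion libraries lay below WT, and those of 82Eb.del, 95Ca.del and 95Cb.del lay below those of 21D.del and 95Cc.del. It was 16.8-fold lower in 82Eb.del (log2 fold change -4.07 ± 0.40, adjusted p = 0.00288), 20.3-fold lower in 95Ca.del (-4.34 ± 0.39, 0.00162) and 15.1-fold lower in 95Cb.del (-3.92 ± 0.31, 0.000685). In 95Cc.del the decrease was smaller (-1.20 ± 0.26, adjusted p = 0.0402) and its call was lost without any 1 of the 6 libraries (adjusted p between 0.00445 and 0.205), over replicates 1 and 3 and with library totals. Where a call is lost at an adjusted p below 0.05, the fold change had dropped under 2. In 21D.del the value was -1.78 ± 0.39 and was not called (adjusted p = 0.146), but it was called with the replicate block (-1.79 ± 0.21, adjusted p = 0.0075).

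The adjacent Ugt37A3 was called in no strain against WT. Ugt37A3 had 54.7, 94.2 and 58.8 CPM in 21D.del, 56.9, 65.1 and 59.1 in 82Eb.del, 37.1, 50.2 and 38.5 in 95Ca.del, 116, 63.3 and 87.0 in 95Cb.del and 54.0, 48.2 and 47.3 in 95Cc.del, against 58.0, 86.9 and 64.0 CPM in WT. Its groups overlapped WT except in 95Ca.del and 95Cc.del, whose libraries all lay below WT, and the log2 fold change ranged between -0.72 in 95Ca.del and 0.32 in 95Cb.del.

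Ugt37D1 (FBgn0040260, 2L:16799025-16801584, plus strand, 2 introns) and Ugt37C1 (FBgn0026754, 2R:16843296-16845038, minus strand, no intron) were both highest in 95Cc.del. Ugt37D1 had 10.7, 12.3 and 9.69 CPM in 21D.del, 8.51, 10.5 and 6.08 in 82Eb.del, 10.5, 8.19 and 8.79 in 95Ca.del, 7.65, 5.75 and 6.70 in 95Cb.del and 24.1, 23.3 and 19.2 in 95Cc.del, against 12.7, 18.4 and 12.3 CPM in WT. The 95Cc.del libraries all lay above WT, and those of the other 4 deletion strains all lay below it. The highest 21D.del library (12.32 CPM) and the lowest WT library (12.33 CPM) were nearly equal, however. In 21D.del the value was -0.41 ± 0.25 and was not called (adjusted p = 0.86). Ugt37D1 fell in 95Cb.del (-1.14 ± 0.23, adjusted p = 0.026), a call that was lost without any 1 of the 6 libraries (adjusted p between 0.0218 and 0.163), over replicates 1 and 3 and with library totals, and its value in 95Cc.del was 0.63 ± 0.19 (adjusted p = 0.12). Ugt37C1, which passed the filter only in 95Cc.del, had 31, 24 and 20 counts in 95Cc.del, against 3, 3 and 6 counts in WT, and between 0 and 11 counts in the other deletion libraries. Since Ugt37C1 passed the filter there through the strain in which it is high, its call is given as a description. The 95Cc.del libraries lay above all others, at 1.46 ± 0.155 CPM, against 0.246 ± 0.121 CPM in WT (SD, n = 3 each), a log2 fold change of 2.57 ± 0.38 (adjusted p = 0.0105). That call was lost without 95Cc.del replicates 1, 2 and 3 each in turn (adjusted p between 0.0507 and 0.0657). Ugt37C2, which lies upstream of Ugt37E1 and Ugt37D1 on the same strand, was called with the block in 82Eb.del (-1.72 ± 0.56, adjusted p = 0.0389).

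**Figure D2:**
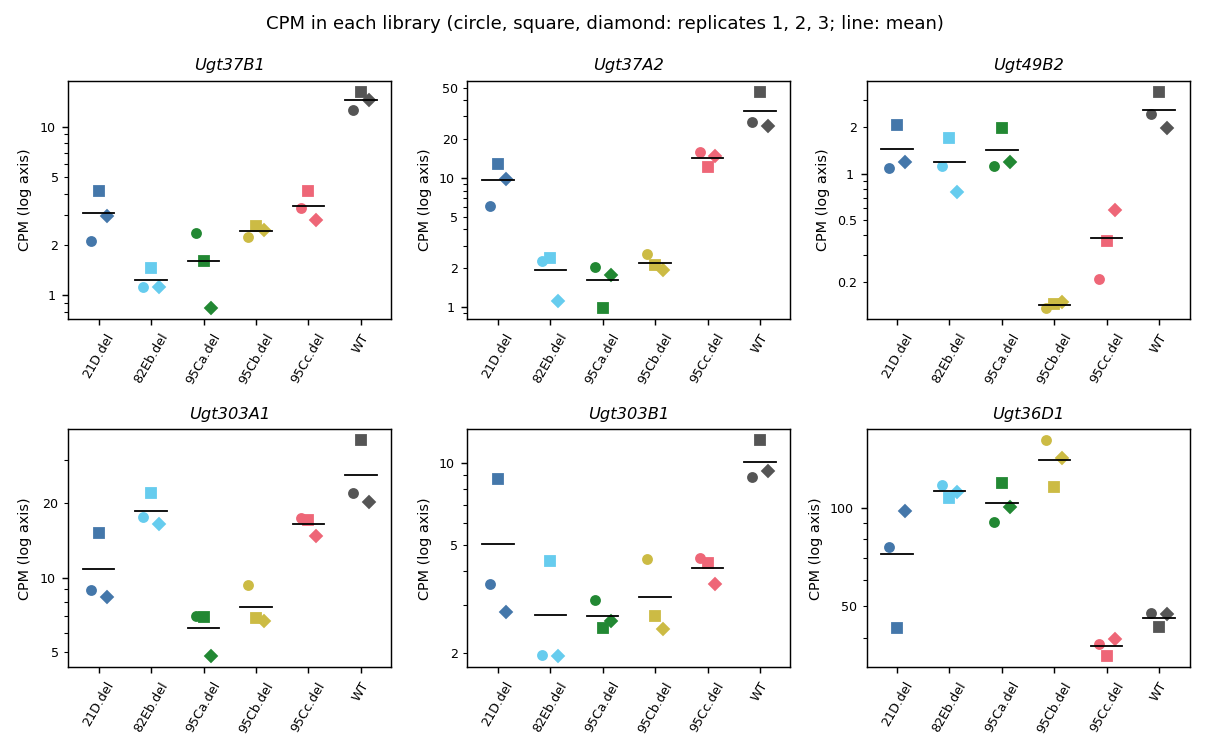
CPM in each library on a log axis for 6 Ugt genes, with the deletion strains at the left and WT at the right, the 3 replicates as circle, square and diamond, and the mean as a line. Ugt37B1, Ugt37A2 and Ugt303B1 lie below WT in every deletion library, Ugt49B2 is lowest in 95Cb.del at 0.137 to 0.149 CPM, and Ugt36D1 lies above WT in 82Eb.del, 95Ca.del and 95Cb.del.

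All 4 members of the Ugt303 family were tested in every strain, and all had a negative log2 fold change in every strain. The calls, all lower, were 0 of 4 in 21D.del, 1 in 82Eb.del, 4 in 95Ca.del, 4 in 95Cb.del and 2 in 95Cc.del. Of all genes tested, 0.892%, 3.8%, 2.51%, 5.96% and 2.73% were called lower, in the same order of strains. The family median was -1.13 in 21D.del, -1.33 in 82Eb.del, -1.95 in 95Ca.del, -1.65 in 95Cb.del and -0.89 in 95Cc.del. Without 95Ca.del replicate 2 the calls in 95Ca.del were 2, Ugt303B1 and Ugt303B2 (against 1.99% of all genes), and the family median was -1.90. Ugt303A1 (FBgn0040252, 3R:11175529-11177910, plus strand, 1 intron) belongs to the 3R cluster described further on. Ugt303A1 had 8.94, 15.2 and 8.37 CPM in 21D.del, 17.6, 22.0 and 16.5 in 82Eb.del, 6.999, 6.93 and 4.82 in 95Ca.del, 9.33, 6.86 and 6.70 in 95Cb.del and 17.5, 17.1 and 14.8 in 95Cc.del, against 22.0, 36.0 and 20.2 CPM in WT. The 95Ca.del, 95Cb.del, 95Cc.del and 21D.del libraries all lay below WT, while those of 82Eb.del overlapped it. Ugt303A1 fell 4.12-fold in 95Ca.del (log2 fold change -2.04 ± 0.30, adjusted p = 0.0143) and 3.49-fold in 95Cb.del (-1.80 ± 0.28, 0.01). The call in 95Ca.del was lost without 95Ca.del replicates 2 and 3 each in turn (adjusted p between 0.0615 and 0.0939) and that in 95Cb.del without 95Cb.del replicates 2 and 3 each in turn (adjusted p between 0.053 and 0.0819). In 21D.del it was not called (adjusted p = 0.29), but was with the block (-1.27 ± 0.16, adjusted p = 0.00945).

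Ugt303B3, Ugt303B1 and Ugt303B2 stand side by side on the minus strand of 3R, between 23532945 and 23538908, with 1 intron each and 132 and 282 bp between them. The deleted U1 genes of the 95C strains lie on the same arm, at between 287 and 325 kb from these 3 genes. Ugt303B1 had 3.59, 8.68 and 2.83 CPM in 21D.del, 1.97, 4.34 and 1.95 in 82Eb.del, 3.14, 2.47 and 2.62 in 95Ca.del, 4.42, 2.73 and 2.46 in 95Cb.del and 4.47, 4.27 and 3.58 in 95Cc.del, against 8.83, 12.1 and 9.28 CPM in WT. Every deletion library was below every WT library. Ugt303B1 fell in 82Eb.del (-1.86 ± 0.37, adjusted p = 0.0419), 95Ca.del (-1.86 ± 0.24, 0.00819), 95Cb.del (-1.68 ± 0.27, 0.0119) and 95Cc.del (-1.28 ± 0.19, 0.0106). The call was lost in 82Eb.del without 82Eb.del replicates 1 and 3 and WT replicates 1, 2 and 3 each in turn (adjusted p between 0.0898 and 0.179) and with library totals, in 95Ca.del without 95Ca.del replicate 3 (adjusted p = 0.0741), in 95Cb.del without 95Cb.del replicates 2 and 3 and WT replicate 3 each in turn (adjusted p between 0.0521 and 0.0922), and in 95Cc.del without 95Cc.del replicates 1, 2 and 3 each in turn (adjusted p between 0.0538 and 0.0792) and in one fit of all 18 libraries. In 21D.del the value was -0.99 ± 0.47 and it was called only over replicates 1 and 3 (-1.48 ± 0.22, adjusted p = 0.00983).

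Ugt303B2 had 1.08, 2.45 and 1.12 CPM in 21D.del, 1.49, 1.99 and 1.003 in 82Eb.del, 1.08, 0.880 and 0.929 in 95Ca.del, 1.59, 1.39 and 1.04 in 95Cb.del and 2.91, 2.01 and 2.47 in 95Cc.del, against 4.44, 4.57 and 3.31 CPM in WT. Its deletion libraries, 21D.del replicate 2 included, all lay below WT. Ugt303B2 fell in 95Ca.del (-2.07 ± 0.28, adjusted p = 0.0105) and in 95Cb.del (-1.62 ± 0.27, 0.0122), calls lost without 95Ca.del replicate 3 and WT replicate 1 each in turn (adjusted p between 0.069 and 0.0849) in 95Ca.del and without 95Cb.del replicate 3 and WT replicate 1 each in turn (adjusted p between 0.0668 and 0.0939) in 95Cb.del. Ugt303B3 had 8.30, 16.8 and 8.17 CPM in 21D.del, 9.04, 10.9 and 7.26 in 82Eb.del, 8.43, 8.08 and 6.84 in 95Ca.del, 11.2, 6.23 and 7.51 in 95Cb.del and 10.9, 10.7 and 8.53 in 95Cc.del, against 16.6, 28.7 and 18.1 CPM in WT. All groups but 21D.del lay wholly below WT. Ugt303B3 fell in 95Ca.del (-1.43 ± 0.26, adjusted p = 0.0381), 95Cb.del (-1.38 ± 0.30, 0.0341) and 95Cc.del (-1.06 ± 0.24, 0.0467). None of these 3 calls held over replicates 1 and 3 or with library totals, and they were lost without 95Ca.del replicates 1, 2 and 3 and WT replicates 1 and 3 each in turn (adjusted p between 0.0792 and 0.223) in 95Ca.del, without 95Cb.del replicates 2 and 3 and WT replicates 1 and 3 each in turn (adjusted p between 0.0759 and 0.185) in 95Cb.del and without any 1 of the 6 libraries (adjusted p between 0.00902 and 0.213) in 95Cc.del. With the block, both were called in 82Eb.del as well, Ugt303B2 at -1.46 ± 0.23 (adjusted p = 0.00142) and Ugt303B3 at -1.19 ± 0.13 (adjusted p = 0.000212). In 21D.del both were called over replicates 1 and 3, Ugt303B2 at -1.82 ± 0.32 (adjusted p = 0.0196) and Ugt303B3 at -1.07 ± 0.16 (adjusted p = 0.00987).

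Of the 6 members of the Ugt35 family 3 passed the filter, and of these 0 were called in 21D.del, 1 fell in 82Eb.del and in 95Ca.del, 2 fell in 95Cb.del, and 2 rose in 95Cc.del. Of all genes tested, 0.892% fell and 0.121% rose in 21D.del, 3.8% fell in 82Eb.del, 2.51% in 95Ca.del and 5.96% in 95Cb.del, and 2.07% rose in 95Cc.del. Without 95Ca.del replicate 2 the call in 95Ca.del was lost, while 1.99% of all genes were called. Ugt35A1 had 40.5, 79.1 and 34.3 CPM in 21D.del, 20.5, 26.9 and 18.9 in 82Eb.del, 30.0, 20.3 and 24.2 in 95Ca.del, 28.4, 24.6 and 21.6 in 95Cb.del and 90.8, 75.6 and 76.9 in 95Cc.del, against 58.5, 92.0 and 60.9 CPM in WT. The libraries of 82Eb.del, 95Ca.del and 95Cb.del all lay below WT, while those of 21D.del and 95Cc.del overlapped it.

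Ugt35A1 fell in 82Eb.del (-1.66 ± 0.24, adjusted p = 0.0133), 95Ca.del (-1.49 ± 0.25, 0.0253) and 95Cb.del (-1.53 ± 0.23, 0.00851), or 3.16-, 2.82- and 2.89-fold. The call in 82Eb.del was lost without 82Eb.del replicates 1 and 3 each in turn (adjusted p between 0.0784 and 0.0923), that in 95Ca.del without 95Ca.del replicates 2 and 3 and WT replicates 1 and 3 each in turn (adjusted p between 0.0682 and 0.167) and that in 95Cb.del without 95Cb.del replicate 3 (adjusted p = 0.0756). With library totals the calls in 82Eb.del and 95Ca.del were lost. In 95Cc.del the value was 0.21 ± 0.19 (adjusted p = 0.633).

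Ugt35B1 (FBgn0026314, 3R:11168503-11170246, minus strand, 1 intron), known from the antenna of the adult fly, had the largest increase over WT among members that passed the filter. Ugt35B1 had 3.34, 4.83 and 2.504 CPM in 21D.del, 1.33, 1.63 and 1.18 in 82Eb.del, 1.62, 0.605 and 1.52 in 95Ca.del, 0.364, 0.240 and 0.670 in 95Cb.del and 13.2, 11.8 and 13.3 in 95Cc.del, against 1.32, 2.25 and 0.699 CPM in WT. The 21D.del and 95Cc.del libraries lay above WT and those of 95Cb.del below it, and 95Cc.del stood above all others, with 253, 194 and 205 counts against 27, 32 and 11 counts in WT. Ugt35B1 was 9.10-fold higher in 95Cc.del (log2 fold change 3.19 ± 0.37, adjusted p = 0.00432). In 95Cb.del it had 8, 5 and 9 counts, all below WT, and was not called (-1.82 ± 0.57, adjusted p = 0.0949), but it was called in one fit of all libraries (-1.78, adjusted p = 0.0277).

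Ugt35C1 (FBgn0040256, 3R:11126597-11128328, minus strand, 1 intron), also named Ugt86Dd and linked to nicotine resistance of larvae, was called in both directions. Ugt35C1 had 8.94, 16.2 and 7.84 CPM in 21D.del, 11.4, 15.2 and 12.4 in 82Eb.del, 10.8, 7.97 and 9.55 in 95Ca.del, 6.10, 4.03 and 5.06 in 95Cb.del and 34.9, 33.2 and 31.2 in 95Cc.del, against 10.9, 18.1 and 10.2 CPM in WT. The 95Cc.del libraries all lay above WT and the 95Cb.del libraries all below it, while the other groups overlapped WT. Ugt35C1 rose 2.56-fold in 95Cc.del (1.35 ± 0.23, adjusted p = 0.0178) and fell 2.64-fold in 95Cb.del (-1.40 ± 0.29, adjusted p = 0.0286). Both calls were lost with library totals. The call in 95Cc.del was also lost without 95Cc.del replicates 1, 2 and 3 and WT replicates 1 and 3 each in turn (adjusted p between 0.0656 and 0.11), and that in 95Cb.del without 95Cb.del replicates 1, 2 and 3 and WT replicates 1 and 3 each in turn (adjusted p between 0.0666 and 0.158) and over replicates 1 and 3.

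The other 3 members of the family, Ugt35D1, Ugt35E1 and Ugt35E2, passed no filter and had 35, 54 and 35 counts over the 18 libraries. Ugt35E2 had 0 counts in the 3 libraries of 82Eb.del and 0 in those of 95Cb.del, against 21 in WT. Set against 3 counts over the group, it was at least 7.26-fold lower in 82Eb.del and at least 7.8-fold lower in 95Cb.del, counting error of the strain only. These bounds take the 21 counts of WT as exact. DESeq2, which was run without the filter, called both. Ugt35E2 had counts on the WT side alone in these comparisons, so both calls are given as a description. Ugt35E1 had 2 counts in 95Cb.del against 21 in WT, with WT 11.7 times as high in CPM (95% exact interval 2.86 to 103, counting error only).

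**Figure D3:**
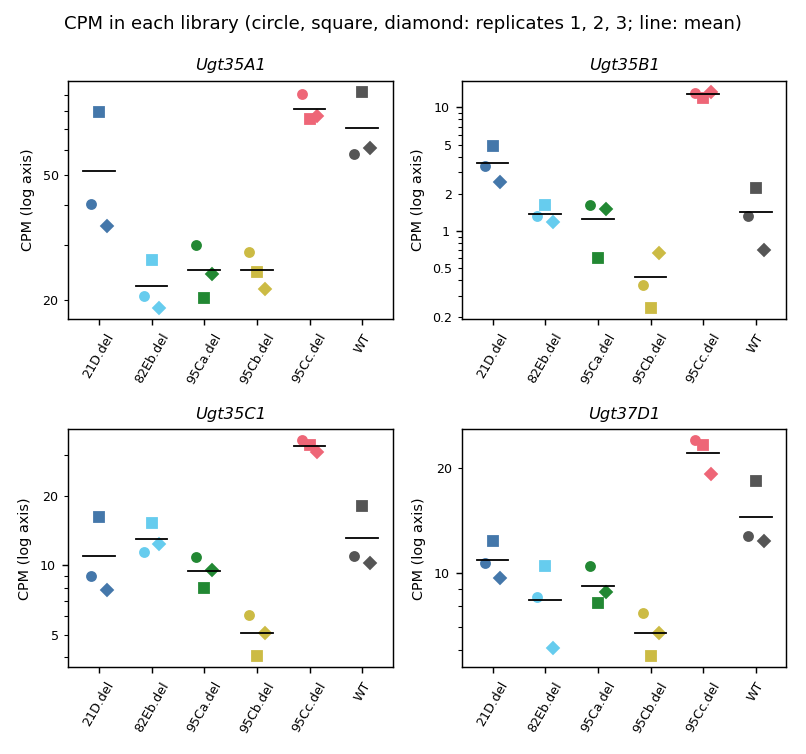
CPM in each library on a log axis for 3 Ugt35 genes and Ugt37D1, with deletion strains at the left and WT at the right, replicates as circle, square and diamond, and the mean as a line. For Ugt35B1, Ugt35C1 and Ugt37D1 the 95Cc.del libraries are the highest, for Ugt35C1 the 95Cb.del libraries are the lowest, and Ugt35A1 is below WT in 82Eb.del, 95Ca.del and 95Cb.del.

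Ugt36D1 (FBgn0032713, 2L:18823548-18826716, plus strand, 4 introns) was called higher in 3 strains, more than any other member. Ugt36D1 had 75.6, 42.8 and 97.3 CPM in 21D.del, 117, 107 and 112 in 82Eb.del, 90.4, 119 and 101 in 95Ca.del, 161, 116 and 142 in 95Cb.del and 38.3, 35.1 and 39.5 in 95Cc.del, against 47.5, 43.0 and 47.4 CPM in WT. The libraries of 82Eb.del, 95Ca.del and 95Cb.del all lay above WT, those of 95Cc.del all lay below it, and those of 21D.del overlapped it through replicate 2. Ugt36D1 rose 2.45-fold in 82Eb.del (1.29 ± 0.12, adjusted p = 0.00266), 2.26-fold in 95Ca.del (1.17 ± 0.17, 0.0146) and 2.97-fold in 95Cb.del (1.57 ± 0.16, 0.00173). The call in 95Ca.del was lost without 95Ca.del replicate 3 and WT replicates 1 and 3 each in turn (adjusted p between 0.0871 and 0.089). In 95Cc.del the value was -0.28 ± 0.12 and was not called (adjusted p = 0.241). Ugt36F1 and Ugt36E1 flank Ugt36D1 on the same strand at 974 and 53 bp. Ugt36E1 had log2 fold changes between -0.21 and 0.50, and Ugt36F1, tested in 21D.del only, had 0.42, with no call for either.

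Ugt49B2 (FBgn0038886, 3R:21397781-21399742, minus strand, 3 introns) had the deepest decrease in 95Cb.del among members that passed the filter. Ugt49B2 had 22, 31 and 18 counts in 21D.del, 21, 28 and 13 in 82Eb.del, 25, 36 and 14 in 95Ca.del, 3, 3 and 2 in 95Cb.del and 4, 6 and 9 in 95Cc.del, against 50, 48 and 31 counts in WT. In CPM the 95Cb.del and 95Cc.del libraries lay below all others, those of 82Eb.del also lay below WT, and those of 21D.del and 95Ca.del overlapped WT through their replicate 2. The mean level in CPM was 0.143 ± 0.00615 in 95Cb.del and 0.387 ± 0.190 in 95Cc.del, against 2.59 ± 0.714 in WT (SD, n = 3 each). Ugt49B2 was 17.7-fold lower in 95Cb.del (-4.15 ± 0.39, adjusted p = 0.00125) and 6.69-fold lower in 95Cc.del (-2.74 ± 0.41, adjusted p = 0.0108), and the second call was lost without 95Cc.del replicates 1 and 2 each in turn (adjusted p between 0.0519 and 0.0827). Since Ugt49B2 passed the filter in both comparisons through WT, where it is high, both calls are given as a description. In 82Eb.del Ugt49B2 was called with the block (-1.13 ± 0.26, adjusted p = 0.01), not without it (adjusted p = 0.177). Its subfamily partner Ugt49B1 was called nowhere, with log2 fold changes between -0.29 in 95Ca.del and 0.64 in 21D.del.

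Ugt302K1 (FBgn0040251, 3R:11151026-11153849, minus strand, 2 introns) rose in 82Eb.del. Ugt302K1 had 7.27, 13.4 and 6.26 CPM in 21D.del, 7.77, 8.74 and 6.198 in 82Eb.del, 3.36, 1.48 and 4.06 in 95Ca.del, 5.87, 3.69 and 4.54 in 95Cb.del and 3.48, 2.81 and 5.01 in 95Cc.del, against 2.44, 3.44 and 2.22 CPM in WT. The libraries of 21D.del, 82Eb.del and 95Cb.del all lay above WT. The log2 fold change was 1.498 ± 0.26 in 82Eb.del (adjusted p = 0.0242), called until any of 82Eb.del replicates 1 and 3 and WT replicates 1 and 3 was left out (adjusted p between 0.07 and 0.128) or library totals were used. In 21D.del it was 1.74 ± 0.40 and not called (adjusted p = 0.156), but called with the block (1.69 ± 0.23, adjusted p = 0.0112). In 95Cb.del it was called over replicates 1 and 3 alone (1.12, adjusted p = 0.049).

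Ugt304A1 (FBgn0040250, 3R:11173441-11175408, minus strand, 1 intron) and Ugt50B3 (FBgn0050438, 2R:5496674-5549543, plus strand, 6 introns, the only member that spans more than 4 kb) fell in 95Cb.del. Ugt304A1 had 4.32, 8.01 and 3.56 CPM in 21D.del, 5.32, 9.83 and 5.96 in 82Eb.del, 4.08, 1.92 and 3.21 in 95Ca.del, 5.55, 3.40 and 4.17 in 95Cb.del and 6.71, 6.59 and 6.38 in 95Cc.del, against 8.73, 14.3 and 8.64 CPM in WT. Its 21D.del, 95Ca.del, 95Cb.del and 95Cc.del libraries lay below WT. The call in 95Cb.del (-1.30 ± 0.29, adjusted p = 0.0367) was lost without 95Cb.del replicates 1, 2 and 3 and WT replicates 1 and 3 each in turn (adjusted p between 0.0665 and 0.19), over replicates 1 and 3 and with library totals. In 21D.del it was called with the block (-1.03 ± 0.20, adjusted p = 0.046), and in 95Ca.del the value was -1.76 ± 0.35 (adjusted p = 0.0555). There Ugt304A1 was called with DESeq2 (adjusted p = 0.000501), with no filter (0.0483) and in one fit of all libraries (0.00693). It was not called without 95Ca.del replicate 2. Ugt50B3 had 29.8, 52.7 and 20.9 CPM in 21D.del, 10.8, 19.6 and 9.80 in 82Eb.del, 18.4, 6.76 and 9.80 in 95Ca.del, 10.4, 11.8 and 6.70 in 95Cb.del and 16.0, 12.3 and 13.2 in 95Cc.del, against 17.6, 24.7 and 18.2 CPM in WT. The 95Cb.del and 95Cc.del libraries lay below WT, and the other groups overlapped it. Ugt50B3 passed in 95Cb.del (-1.09 ± 0.27, adjusted p = 0.0482) but was lost without any 1 of the 6 libraries (adjusted p between 0.0668 and 0.212) and under library totals, no filter, replicates 1 and 3 and one fit of all libraries.

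The remaining 11 tested members were called in no strain by edgeR's test against WT, with log2 fold changes between -1.82 (Ugt37C2 in 95Cb.del) and 0.88 (Ugt49C1 in 95Cc.del). DESeq2 called Ugt305A1 in 95Ca.del (-1.05 ± 0.29, adjusted p = 0.00701) and Ugt37C2 in 95Cb.del (-1.78 ± 0.63, adjusted p = 0.0462). Ugt307A1 was called only over replicates 1 and 3, in 82Eb.del (-2.17 ± 0.68, adjusted p = 0.0334). Ugt316A1, among the most abundant members, averaged 67.1 ± 20.8 CPM in 21D.del, 66.3 ± 12.8 in 82Eb.del, 63.2 ± 9.69 in 95Ca.del, 69.1 ± 9.40 in 95Cb.del and 54.8 ± 4.71 in 95Cc.del, against 66.5 ± 17.7 CPM in WT (SD, n = 3 each), and every group overlapped WT. Ugt301D1 had 121, 217 and 123 CPM in 21D.del, 91.0, 105 and 81.7 in 82Eb.del, 119.7, 113 and 98.7 in 95Ca.del, 149.7, 101 and 116 in 95Cb.del and 75.8, 60.6 and 64.1 in 95Cc.del, against 103, 145 and 102 CPM in WT. Only the 95Cc.del libraries of Ugt301D1 lay wholly below WT, at a log2 fold change of -0.80 ± 0.17 that was not called (adjusted p = 0.0401). Besides the 3 Ugt35 genes, Ugt37E1, Ugt37A1 and Ugt302E1 were never tested, with 3, 10 and 33 counts over the 18 libraries. Exons of Ugt36A1, Ugt307A1, Ugt36E1 and Ugt49B1 overlap those of a gene on the other strand, and since the strand and multi-mapping settings of the counting are not given, their counts and those of closely related neighbours are uncertain.

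An effect called in one strain only need not differ between strains, and this was tested by an F test of the 5 deletion strains in one fit. Of 29 members tested, 14 differed among the strains (48.3%, against 17% of the 13096 genes tested). Ugt37C1 is among these and among those that held below, with 31, 24 and 20 counts in 95Cc.del and at most 11 in any other library. It passed the filter mainly through the strain in which it is high, so its result among strains is a description. The adjusted p was smallest for Ugt35B1 (6.99e-06), Ugt37A2 (1.53e-05) and Ugt35C1 (6.36e-05). Of the 14, 9 held without each library in turn. Ugt37B1, Ugt301D1, Ugt302K1, Ugt37A3 and Ugt50B3 did not, with adjusted p between 0.0502 and 0.11 in the fits that lost them, and each was lost with library totals too, and Ugt37B1 and Ugt302K1 also over replicates 1 and 3. Ugt37B1 was lost without 82Eb.del replicates 1 and 3 and 95Cc.del replicate 1, Ugt301D1 without 95Cc.del replicates 1, 2 and 3, Ugt302K1 without 95Cc.del replicates 1 and 2, Ugt50B3 without 21D.del replicate 2, and Ugt37A3 without 95Ca.del replicates 1 and 3, 95Cb.del replicates 1 and 3, 95Cc.del replicates 1, 2 and 3 and WT replicate 3, each left out in turn.

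The members were then compared over the 10 pairs of strains in the same fit, with p adjusted over all genes of each pair and no fold threshold. Of the 29 members, 3 had an adjusted p below 0.05 between 82Eb.del and 21D.del (against 2.92% of all genes), 2 between 95Ca.del and 21D.del (1.73%), 1 between 95Ca.del and 82Eb.del (1.08%), 6 between 95Cb.del and 21D.del (4.36%), 3 between 95Cb.del and 82Eb.del (1.56%) and 2 between 95Cb.del and 95Ca.del (1.55%). In the pairs with 95Cc.del it was 8 against 21D.del (10.6% of all genes), 10 against 82Eb.del (12.9%), 11 against 95Ca.del (10.4%) and 11 against 95Cb.del (21.8%). These pairs reuse the libraries of the F test that had picked out the 14 members, so their counts are a description. Replicate numbers paired the libraries in 3 of the pairs, and fits of the 2 strains of each pair alone with the number as a block, chosen after seeing the data, gave 2 of 25 members between 82Eb.del and 21D.del (against 1.92% of all genes), 12 of 27 between 95Cc.del and 95Ca.del (18.9%) and 18 of 26 between 95Cc.del and 95Cb.del (48.1%). Between 82Eb.del and 21D.del Ugt35A1 and Ugt37B1 were lost with the block (adjusted p of 0.0634 and 0.104) and Ugt50B3 was gained (-1.35, adjusted p = 0.0275). Without 95Ca.del replicate 2 the counts were 1 against 21D.del (1.14% of all genes), 1 against 82Eb.del (0.866%), 2 for 95Cb.del against 95Ca.del (1.38%) and 8 for 95Cc.del against 95Ca.del (5.97%). Ugt35B1 was higher in 95Cc.del than in 95Cb.del by 4.96 on the log2 scale (adjusted p = 5.63e-06), Ugt35C1 by 2.71 (1.39e-05), Ugt37A2 by 2.68 (0.000106) and Ugt37D1 by 1.73 (7.24e-05). Ugt36D1 went the other way, with a contrast of -1.89 (adjusted p = 4.21e-05). For Ugt49B2, 95Cb.del was below 95Ca.del by 9.62-fold (adjusted p = 0.00233, and 7.73-fold with adjusted p = 0.0105 without 95Ca.del replicate 2), while 95Cc.del against 95Cb.del did not pass (1.37, adjusted p = 0.0917). Between 95Ca.del and 82Eb.del only Ugt303A1 passed (-1.57, adjusted p = 0.00769, and -1.65 with adjusted p = 0.0263 without 95Ca.del replicate 2). Ugt303B1, Ugt303B2, Ugt303B3 and Ugt304A1, called in 1 to 4 strains, did not pass the test among the strains. Ugt303B2 passed it over replicates 1 and 3 (adjusted p = 0.0297), and with the block Ugt303B2 (0.88, adjusted p = 0.0287) and Ugt304A1 (0.62, adjusted p = 0.0273) passed between 95Cc.del and 95Cb.del.

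A run of 10 Ugt genes lies on 3R between 11126597 and 11177910, 51.3 kb long, with 7 genes on the minus and 3 on the plus strand. Along it run Ugt35C1, Ugt302K1, Ugt302E1, Ugt302C1, Ugt35E1, Ugt35E2, Ugt35B1, Ugt35A1, Ugt304A1 and Ugt303A1. Of the 7 that were tested, 0 were called in 21D.del, 1 fell and 1 rose in 82Eb.del, 2 fell in 95Ca.del, 4 fell in 95Cb.del and 2 rose in 95Cc.del. Of all genes tested, 0.892%, 3.8%, 2.51%, 5.96% and 2.73% were called lower, in the same order of strains. Called higher were 0.121%, 0.733%, 0.241%, 1.43% and 2.07%. Without 95Ca.del replicate 2 none of the run was called in 95Ca.del (0 of 7, against 1.99% of all genes). Neighbours within the run had different values. In 95Cc.del Ugt35B1 was at 3.19 and the adjacent Ugt35A1 at 0.21 on the log2 scale, although 570 bp separate them. In 82Eb.del Ugt35A1 was at -1.66 and Ugt35B1 at -0.02. Ugt302C1, in the middle of the run, was called in no strain and lay between -0.62 and -0.15.

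**Figure D4:**
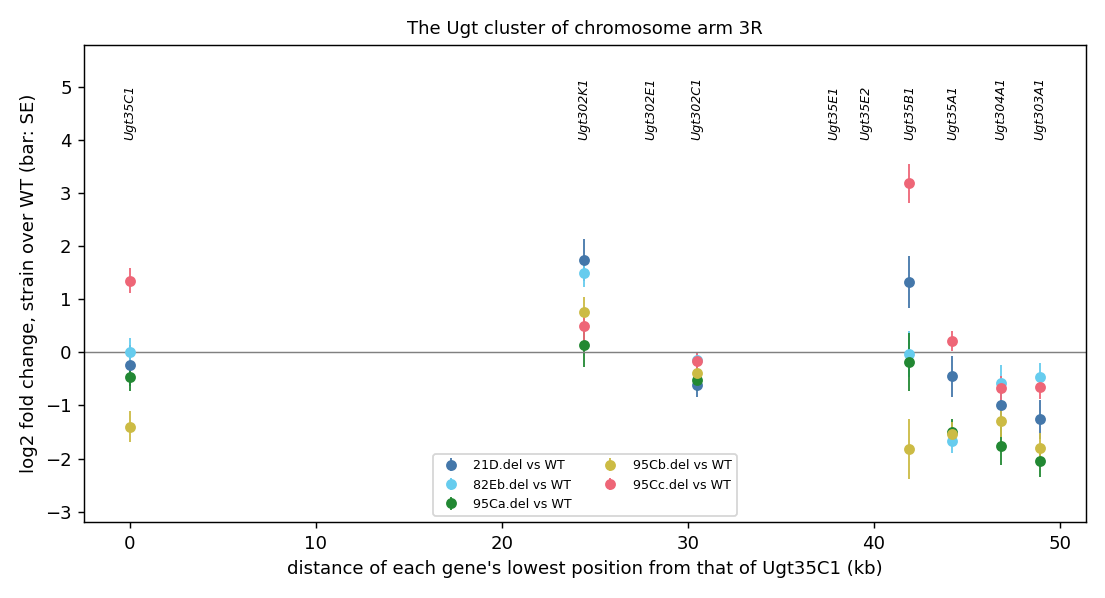
Log2 fold change over WT (points, with SE as bars) of the 7 tested genes of the 3R run against the distance in kb of each gene's lowest position from that of Ugt35C1, with 1 colour per deletion strain and all 10 genes named at their position. Ugt35B1 spans the widest range, with 95Cc.del at 3.19 and 95Cb.del at -1.82, while Ugt302C1 stays between -0.62 and -0.15.

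The summed CPM of the 35 genes is given as a description, with no test. It was 612 ± 164 in 21D.del, 522 ± 61.9 in 82Eb.del, 472 ± 34.1 in 95Ca.del, 579.8 ± 110.0 in 95Cb.del and 514 ± 41.3 in 95Cc.del, against 632 ± 134 in WT (SD, n = 3 each). The groups overlapped except 95Ca.del, whose libraries (434 to 499) lay below those of WT (553 to 787), and without its replicate 2 95Ca.del averaged 466, with 24.5% in Ugt36 genes. Ugt36 genes held 25.9% of it in 82Eb.del, 26.1% in 95Ca.del and 27.8% in 95Cb.del, against 10.5% in WT, Ugt35 genes held 24.8% in 95Cc.del, against 13.6% in WT, and Ugt303 genes held between 3.53% and 6.44% in the 5 strains, against 9.71% in WT.

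**Figure D5:**
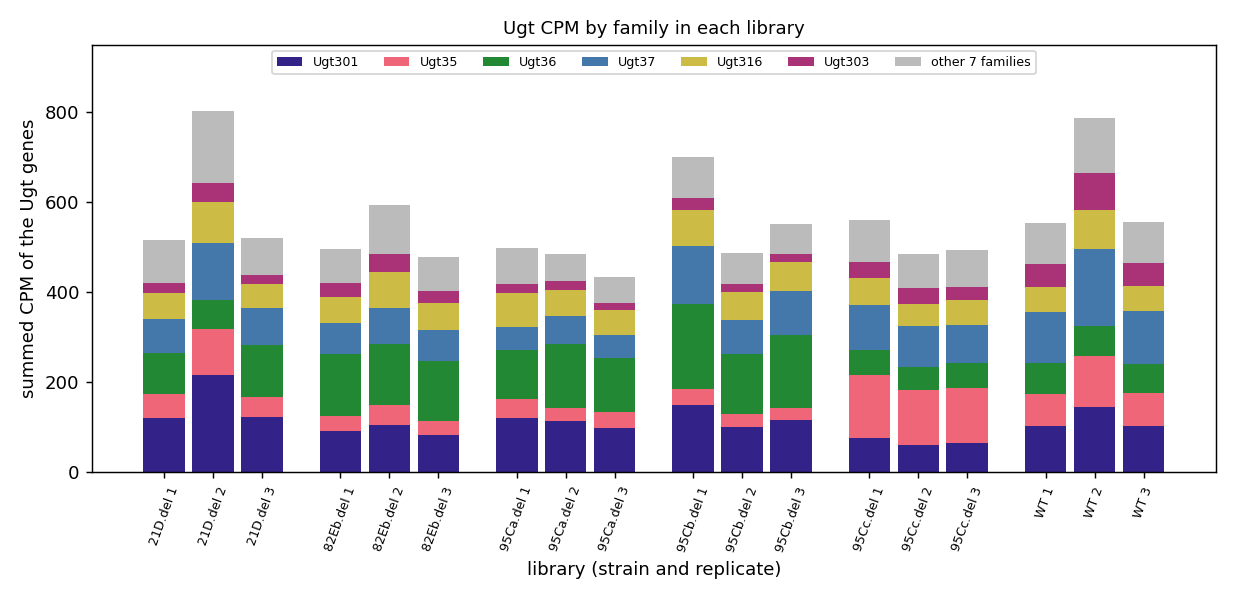
Summed CPM of the Ugt genes in each library (bars, 3 replicates per group, WT at the right), divided by family, with the other 7 families together at the top. The Ugt36 share is widest in 82Eb.del, 95Ca.del and 95Cb.del and the Ugt35 share in 95Cc.del, and replicate 2 is the tallest bar of 21D.del, 82Eb.del and WT.

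Genes that act with UGTs were described by list, with no test of a list. Of all genes tested, 0.892% were called lower in 21D.del, 3.8% in 82Eb.del, 2.51% in 95Ca.del, 5.96% in 95Cb.del and 2.73% in 95Cc.del. Called higher were 0.121%, 0.733%, 0.241%, 1.43% and 2.07%, in the same order. Of the UDP-sugar supply (Hex-A, Hex-C, Pgm1, UGP, sgl and frc), 5 of 6 were tested and 0 were called in any strain. frc was at 0 counts in every library, and whether it was not expressed or not counted was not tested. UGP, the enzyme that makes UDP-glucose, had 0.62 ± 0.14 in 95Cc.del (adjusted p = 0.0461), under the fold threshold. Pgm1 had 0.68 ± 0.15 in 95Cc.del (adjusted p = 0.0431) and -0.97 ± 0.19 in 95Cb.del (adjusted p = 0.0253), also under it. Of 6 regulators of detoxification genes (cnc, Keap1, maf-S, Hr96, tgo and Hnf4) 0 were called in any strain. Of 5 export pumps 1 was called, Mdr50, a P-glycoprotein-type transporter, in 95Ca.del (-1.13 ± 0.19, adjusted p = 0.0268), a call lost without 95Ca.del replicate 2 (adjusted p = 0.106). Of 4 sulfotransferases, which conjugate sulfate to similar substrates, St3 fell in 82Eb.del (-1.59 ± 0.29, adjusted p = 0.0307) and St1 in 95Cb.del (-2.14 ± 0.40, adjusted p = 0.0195). List medians lay between -0.86 and 0.62.

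Markers of larval tissues moved with some of these results, and their part in them was not tested. The shares of all genes called, given with the lists above, hold for these lists too. Of 8 midgut genes 1 fell in 21D.del, 3 in 82Eb.del, 3 in 95Ca.del, 2 in 95Cb.del and 3 in 95Cc.del, and 0 rose, with list medians between -0.99 and -0.59. Without 95Ca.del replicate 2 the 3 in 95Ca.del were Npc1b, mesh and mex1, with a median of -1.30. Their summed CPM was 318 to 511 in 21D.del and 431 to 639 in the other 4 strains, against 699 to 772 in WT. Npc1b, needed for sterol uptake in the midgut, fell in all 5 strains, with log2 fold changes between -3.66 in 95Ca.del and -1.88 in 21D.del. Of 5 hemocyte genes PPO1, an enzyme of crystal cells, fell in all 5 (between -3.68 and -2.01) and NimC1 rose in 82Eb.del, and the summed CPM was 702 to 1395 over the deletion libraries, against 1800.5 to 1959 in WT. Of 4 Malpighian tubule genes Uro fell in 82Eb.del (-1.40). Their summed CPM was 237 to 265 in 95Cc.del, wholly above the 205 to 216 of WT. In the other 4 strains it was 127 to 202, wholly below WT. Of 6 muscle genes 3 rose in 95Cc.del and 1 fell in 95Cb.del, with 39948 to 52652 CPM in 95Cc.del and 12046 to 36339 CPM in the other strains, against 12844 to 23799 CPM in WT. Of 5 salivary gland genes Sgs4 rose in 82Eb.del and Sgs8 in 95Cb.del. Of 6 fat body genes, 6 cuticle genes and 4 neuronal genes 0 were called in any strain. Fat body sums were 88491 to 102439 CPM in 82Eb.del and 85545 to 130210 in 95Ca.del, above 71521 to 77596 in WT. Those of 21D.del, 95Cb.del and 95Cc.del overlapped WT. Cuticle sums differed widely between replicates, at 3063 to 29856 CPM in WT and 2340 to 38262 in 21D.del, and every strain overlapped WT. Neuronal sums also overlapped WT in every strain. No marker was at 0 in every library of a group.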

How the data were processed

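RNA of 18 libraries of whole larvae was sequenced after TRIzol extraction, DNase treatment and, per the labels, rRNA removal and strand-specific preparation, while a note of the study speaks of mRNA-seq. The deposited values are raw read counts per gene, which the authors made by trimming (cutadapt 1.15 and Trimmomatic 0.39 are named in the submitters' processing notes), alignment to dm6 with HISAT2 and counting with featureCounts. Its strand and multi-mapping settings are not given in the sources used here. The deposited counts bear FlyBase IDs, of which 17479 of 17562 matched a symbol.

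Each strain was fitted with WT alone by edgeR 4.0.16 in R 4.3.3, with filterByExpr (minimum count 10, minimum total 15), TMM factors and the quasi-likelihood F test, and p was adjusted by Benjamini-Hochberg over all genes tested. Genes were called where the log2 fold change exceeded 1 in size with adjusted p under 0.05. The SE was the absolute log2 fold change over the root of F. The F test among strains and the pairs of strains came from 1 fit of all libraries. CPM used TMM-scaled totals. Alternatives were DESeq2 1.42.0, library totals in place of TMM, no filter, the replicate block, replicates 1 and 3, 1 fit of all libraries, and each library left out. Scripts were tested on simulated data.

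Replicate numbers were checked by the correlation, over 12982 genes, of same-numbered deviations from the group means. For 21D.del and WT it was 0.66, 0.85 and 0.69, and for 82Eb.del and WT 0.66, 0.85 and 0.66, all above the 0.1 set for pairing. For the 95C strains and WT it was below 0 for replicates 1 and 2. For replicate 3 it was 0.41 in 95Ca.del, 0.55 in 95Cb.del and 0.41 in 95Cc.del. Among strains it passed for all 3 numbers in 82Eb.del and 21D.del (0.57, 0.80 and 0.68), 95Cc.del and 95Ca.del (0.63, 0.26 and 0.32) and 95Cc.del and 95Cb.del (0.65, 0.25 and 0.42), and blocked fits of these pairs were added after seeing the data.

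Members and lists were chosen with earlier results of these data known. Described in full are members called in at least 1 strain or by the F test and the 3 most abundant in WT per kb, and the others are given by range and counts, or by name where they are an extreme or were called over replicates 1 and 3 or with the block. Protein and promoter sequences were not analysed here.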

Additional observations from a re-analysis of the deposited data

Results flagged for a closer look

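The effect against WT differed among the 5 deletion strains for 14 members, by edgeR's quasi-likelihood F test with Benjamini-Hochberg adjustment over all genes tested. In the Ugt37 family these were Ugt37A2 (adjusted p = 1.53e-05), Ugt37D1 (0.00023), Ugt37C1 (0.00594), Ugt37B1 (0.0162) and Ugt37A3 (0.0299). Ugt37C1 passed the filter mainly through 95Cc.del, where it is high, and its value is a description. In the Ugt35 family they were Ugt35B1 (adjusted p = 6.99e-06), Ugt35C1 (6.36e-05) and Ugt35A1 (0.000373). The others were Ugt36D1 (adjusted p = 0.000301), Ugt49B2 (0.000609), Ugt303A1 (0.00217), Ugt50B3 (0.0145), Ugt301D1 (0.016) and Ugt302K1 (0.0222). The contrasts between strains that lie behind these values, and the libraries without which 5 of them were lost, are given with the test among strains.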

How the results depend on the processing

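None of the 36 calls changed direction under any alternative, and 9 held under all of them, among them Ugt49B2 in 95Cb.del, which had passed the filter through WT alone. Of 1032 values under alternatives, 26 changed sign, all of members that were not called. DESeq2 lost 0 calls, library totals in place of TMM lost 14, no filter 1, replicates 1 and 3 lost 8, 1 fit of all libraries 3 and the replicate block 21, all of them in the 95C strains. Under these settings 19 further pairs of a member and a strain were called, 7 in 21D.del, 6 in 82Eb.del, 2 in 95Ca.del and 4 in 95Cb.del. They include Ugt35E2 in 82Eb.del and 95Cb.del, which had 0 counts in the strain and is a description.

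The number of members called in 21D.del (1) became 3 with DESeq2, 0 with library totals, 5 with the replicate block, 8 over replicates 1 and 3 and 5 in 1 fit of all libraries. No share of all genes is given for the 1 fit, so that count is a description. In 82Eb.del (6) it became 3 with library totals, 10 with the block and 10 over replicates 1 and 3. In 95Cb.del (13) and 95Cc.del (8) it became 8 and 5 with library totals, and the F test among strains called 9 in place of 14. Over all genes, library totals called 86 lower and 4 higher in 21D.del, against 111 and 15 with TMM. In 82Eb.del these were 342 and 54, against 472 and 91. In 95Cb.del they were 501 and 167, against 745 and 179, and in 95Cc.del 306 and 164, against 340 and 258. Why library totals moved these counts was not tested. With one library left out in turn, the count ranged between 0 and 2 in 21D.del, 3 and 7 in 82Eb.del, 2 and 8 in 95Ca.del, 4 and 11 in 95Cb.del, 2 and 6 in 95Cc.del, and 10 and 15 among strains. No share of all genes is given beside these ranges, which are a description.

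In the 95C strains the replicates share only a number with WT. With that number as a block 0 members were called in 95Ca.del (against 0.762% of all genes), 6 in 95Cb.del (3.14%) and 2 in 95Cc.del (1.97%). Between strains, in alternatives chosen after seeing the data, the count for 82Eb.del against 21D.del (3) became 0 in a fit of those 2 strains (against 0.478% of all genes) and 2 with the block (1.92%). That for 95Cc.del against 95Cb.del (11) became 18 with the block (48.1%), and that for 95Ca.del against 21D.del (2) became 1 without 95Ca.del replicate 2 (1.14%). DESeq2's test among strains called 15 members, but in simulated data 15.9% of its calls over 13173 genes were false, against 4.41% for edgeR. The simulated spread between libraries was well below that of the data (a biological coefficient of variation of 0.347). These rates therefore need not hold for the data.

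Members with few counts limit what the libraries can show, since 6 were never tested and 3 passed the filter in only some comparisons. With 3 libraries per group, leaving 1 out lost 25 of the 36 calls at least once.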
